A study of Rattus norvegicus with 30 samples.

Results

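Microglia of the injured (ipsilateral) hemisphere were compared with microglia of the opposite (contralateral) hemisphere of the same 3 rats, 14 days after a stroke at 3 months of age. The 6 samples, 3 from each hemisphere, were those whose labels give an age of 3 months, a time of 14 days after stroke and a hemisphere, and they are 6 of the 30 samples of the series. The study followed the microglial transcriptome from day 3 to day 14 after stroke and set rats of 3 months beside rats of 12 months. The other samples were sham operated rats and stroke rats of both ages, from day 3 and day 14, in groups of 3.

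All rats were male. The strain is labelled Wistar Kyoto in the sample characteristics and spontaneously hypertensive in the protocols, and the sources used here do not settle which holds. Stroke was a transient closure of the middle cerebral artery by a filament for 75 min under 1.2% isoflurane. Both hemispheres of an operated rat therefore shared the anaesthesia and the surgery, and the contralateral side is not an unoperated brain. How the microglia were purified and which hemisphere gave the sham samples the sources used here do not state. RNA with an integrity number above 7.0 was amplified from 50 ng and hybridised to whole-transcript Affymetrix arrays, so each value below is a log2 signal of 1 probe set per gene and a change is the ipsilateral minus the contralateral group mean (n = 3 arrays each).

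Microglia are the resident macrophages of the brain. After a stroke they and macrophages that enter from the blood take up dead cells and myelin, degrade them in lysosomes, export the lipid and exchange signals through cytokines, complement and receptors for nucleotides. Neutrophil entry and cell division belong to the early course, while clearance of lipid-rich debris goes on for weeks.

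Arrays of the same group correlated at 0.9911 to 0.9929 (ipsilateral) and 0.9865 to 0.9876 (contralateral, Pearson's r across probe sets), and no pair of arrays was identical. The standard deviation over an array was 1.90 to 1.93 on the ipsilateral side and 1.85 to 1.87 on the contralateral side, with medians of 5.15 to 5.2 and 5.22. The number of arrays limits the precision, and the 3 animals of a group are the replicates.

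The label of the cells was checked against 15 microglial marker genes. Their mean level was 10.02 to 10.05 on the contralateral arrays, 9.66 to 9.87 on the ipsilateral arrays and 10.24 to 10.28 on the 3-month sham arrays. Csf1r, the receptor for the survival factor of microglia, stood at 11.35, 11.38 and 11.40 contralaterally and at 11.26, 11.09 and 11.13 ipsilaterally, and the complement subunit C1qa at 11.06 to 11.16 and 11.14 to 11.17. Olfml3 was the exception, at or below the 30th percentile of the array (4.21 to 4.30) on all 3 ipsilateral and 2 contralateral arrays. Of the 15 genes 8 fell, 1 rose and 6 were not called (median -0.22). The microglial membrane protein Tmem119 fell from 8.42, 8.34 and 8.64 to 7.44, 6.77 and 7.09 (-1.36 ± 0.18), P2ry13, Gpr34, Siglec5, P2ry12 and Cx3cr1 by 0.45 or more on the log2 scale, and Sall1 (-0.30) and Csf1r (-0.22) by less. Itgam rose. All 15 genes but Olfml3 lay above the 30th percentile on all 6 arrays.

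Markers of other cells were measured on the same arrays. The 18 genes of infiltrating monocytes and macrophages had a mean level of 6.06 to 6.13 contralaterally and 6.64 to 6.77 ipsilaterally, with no overlap, beside 6.12 to 6.29 in sham. Of the 17 that could be tested, 9 rose and 1 fell, Plac8, a call lost without ipsilateral replicate 1 or 2 or contralateral replicate 1 or 3; Ly6c was at or below the 30th percentile on all 6 arrays, Ms4a7 on the 3 contralateral ones, and Ccr2, the chemokine receptor of entering monocytes, stood at 4.86 to 5.48 contralaterally and 4.88 to 4.96 ipsilaterally. The ipsilateral arrays lay above all contralateral ones for 9 members: Vim, Anxa2, S100a10, S100a11, Lyz2, Cd44, F10, Gda and Ifitm2. The sides overlapped for S100a4 (7.32, 7.07 and 7.28 contralaterally, 7.11, 7.23 and 7.23 ipsilaterally). They also overlapped for S100a6, Fn1, Itga4 and Ccr2. The list's mean therefore rose through part of its members, and which cells carried that rise was not tested. This shift of the mean lies on the same arrays as every rise given below, and its part in them was not tested. Contralateral replicate 3 had the highest mean of the 15 neutrophil genes, 6.11 against 5.31 and 5.47 on the other contralateral arrays and 5.13 to 5.36 ipsilaterally. The sham arrays stood at 5.2 to 5.84 for these genes. Contralateral replicate 1 had the highest mean of the neuronal genes (4.85 against 4.35 to 4.50 on the other 5 arrays), of the astrocyte genes (5.31 against 4.59 to 4.92) and of the oligodendrocyte genes (5.97 against 5.36 to 5.71). Since the samples are bulk RNA, fewer cells of a type and less RNA per cell cannot be told apart.

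**Figure D1:**
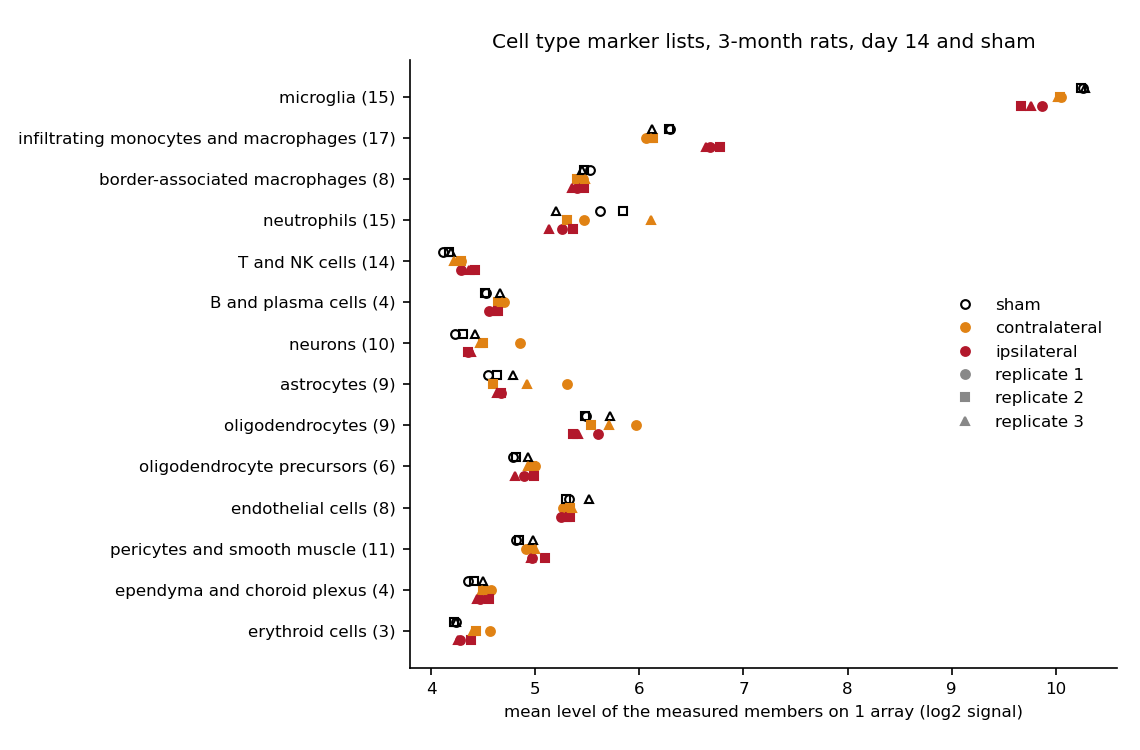
Mean log2 level of the genes of 14 marker lists (1 row per cell type) on each sham array of 3-month rats and each of their contralateral and ipsilateral arrays of day 14. The monocyte and macrophage genes were higher on all 3 ipsilateral arrays (6.64 to 6.77) than on the contralateral arrays (6.06 to 6.13), and contralateral replicates 1 and 3 stand apart for neural and neutrophil genes.

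Across the array, more genes were higher than lower in the injured hemisphere. Of 11675 genes tested, 2365 (20.3%) passed limma's test at a Benjamini-Hochberg adjusted p under 0.05. They were 1537 genes that rose (13.2%) and 828 that fell (7.09%), and 139 of the rises (1.19%) and 31 of the falls (0.266%) were at least 2-fold. All 3 animals moved the same way in 2293 of the called genes and in 5328 of all genes tested. The 3 arrays of each side did not overlap for 3475 genes (29.8%), with the ipsilateral arrays above for 2031 (17.4%) and below for 1444 (12.4%).

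The changes of most called genes were modest. The median rise was 0.48 and the median fall -0.39, while the median over all genes tested was -0.01. The median standard deviation between the 3 arrays was 0.14 contralaterally and 0.11 ipsilaterally for the genes that rose. Rises were spread unevenly over signal level: with the genes ordered by mean level and cut into 4 equal bins, 70 rose and 146 fell in the dimmest bin, 189 and 205 in the next, 445 and 211 in the third and 833 and 266 in the brightest. The brightest bin held 2919 genes, and the median changes of the bins were -0.07, -0.06, 0.04 and 0.10. The list counts below were not matched for level. They stand beside 13.2% higher and 7.09% lower over all genes tested. Among the 828 genes that fell, ipsilateral replicate 2 was the lowest ipsilateral array for 374 (45.2%, against 33.6% over all genes tested). Among the 1537 that rose, ipsilateral replicate 3 was the lowest for 779 (50.7%, against 41.6%).

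The share of higher genes among those called, 65.0%, was 77.5% (1810 higher, 524 lower) when each array was centred on its median and 58.3% (1442 higher, 1030 lower) when the arrays were quantile normalised anew. A fit to the 6 arrays alone with the animal as a block called 1362 genes, and one with the animal as a fixed block over the 24 stroke arrays called 2232.

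**Figure D2:**
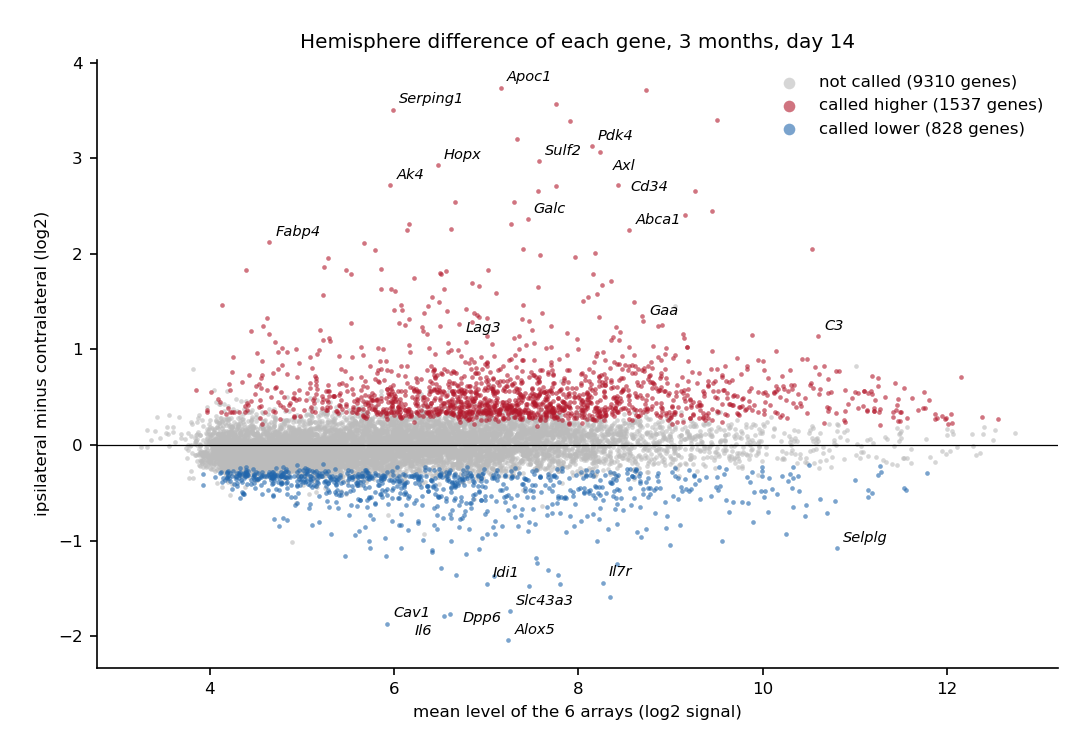
Log2 change (ipsilateral minus contralateral) of each of the 11675 genes tested against its mean log2 level, with called genes coloured by direction and 22 genes labelled. The rises lie mostly among genes of higher level (833 in the brightest of 4 equal bins), and 31 genes fell by at least 2-fold.

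Several of the largest rises and falls were in genes that belong to none of the process lists used here. Among the rises were Sulf2, an extracellular enzyme that removes sulfate groups from heparan sulfate, and Hopx, a small homeodomain protein that does not bind DNA. Others were Cd34, a sialomucin known from blood progenitors and endothelium, and Fcrl2, an Fc receptor-like protein. Lag3, an inhibitory receptor that binds MHC class II, rose by less. Among the falls were Cav1, the coat protein of caveolae, Dpp6, an auxiliary subunit of voltage-gated potassium channels, Slc43a3, a transporter of purine nucleobases, and Cd7, an immunoglobulin-like leukocyte protein.

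The signal of Sulf2 was 5.91, 6.17 and 6.20 on the contralateral arrays of animals 1, 2 and 3 and 9.09, 9.09 and 9.01 on the ipsilateral ones. Its rise was 2.97 ± 0.20 (standard error of the fit, 7.84-fold, adjusted p = 3.6e-12), and the hemispheres did not overlap in any animal. Cd34 stood at 6.93, 7.12 and 7.18 contralaterally and 9.81, 9.83 and 9.74 ipsilaterally, a rise of 2.72 ± 0.15 (6.57-fold, adjusted p = 3.9e-14) with little spread on either side. For Hopx the contralateral arrays, at 4.88, 5.27 and 4.88, were low and close to the dim end of the arrays, and the ipsilateral arrays at 7.60, 8.34 and 7.88 were all well above them. The rise of Hopx was 2.93 ± 0.31 (7.62-fold).

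Ifitm1, an interferon-induced membrane protein, was more variable: 4.94, 6.26 and 5.99 contralaterally and 8.76, 9.32 and 8.71 ipsilaterally, a rise of 3.20 ± 0.41. The low contralateral value was that of animal 1. Fcrl2 rose by 2.41 ± 0.13, the secreted protein Glipr1 by 2.31 ± 0.19 and the Schlafen family member Slfn4 by 2.26 ± 0.26, each with all 3 ipsilateral arrays above all contralateral ones. Lag3 stood at 6.01, 6.08 and 6.44 contralaterally and at 7.52, 7.27 and 7.87 ipsilaterally, a rise of 1.38 ± 0.14.

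Dpp6 was at 7.45, 7.21 and 7.82 contralaterally and at 5.85, 5.40 and 5.93 ipsilaterally. That is a fall of 1.77 on the log2 scale (standard error 0.15, 3.40-fold lower), with no overlap. Cav1 fell from 6.98, 7.11 and 6.47 to 5.54, 4.44 and 4.98 (-1.87 ± 0.23), and its lowest array was ipsilateral replicate 2. That array was also the lowest for Slc43a3 (6.74, 5.91 and 6.50 ipsilaterally, against 8.14, 7.89 and 8.35; change -1.74 ± 0.18) and for Cd7 (6.66, 6.22 and 7.29, against 7.80, 8.22 and 8.60; change -1.48 ± 0.25). N5 fell by 1.25 (standard error 0.13). All of these genes kept their call when any 1 of the 6 arrays was left out.

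**Figure D3:**
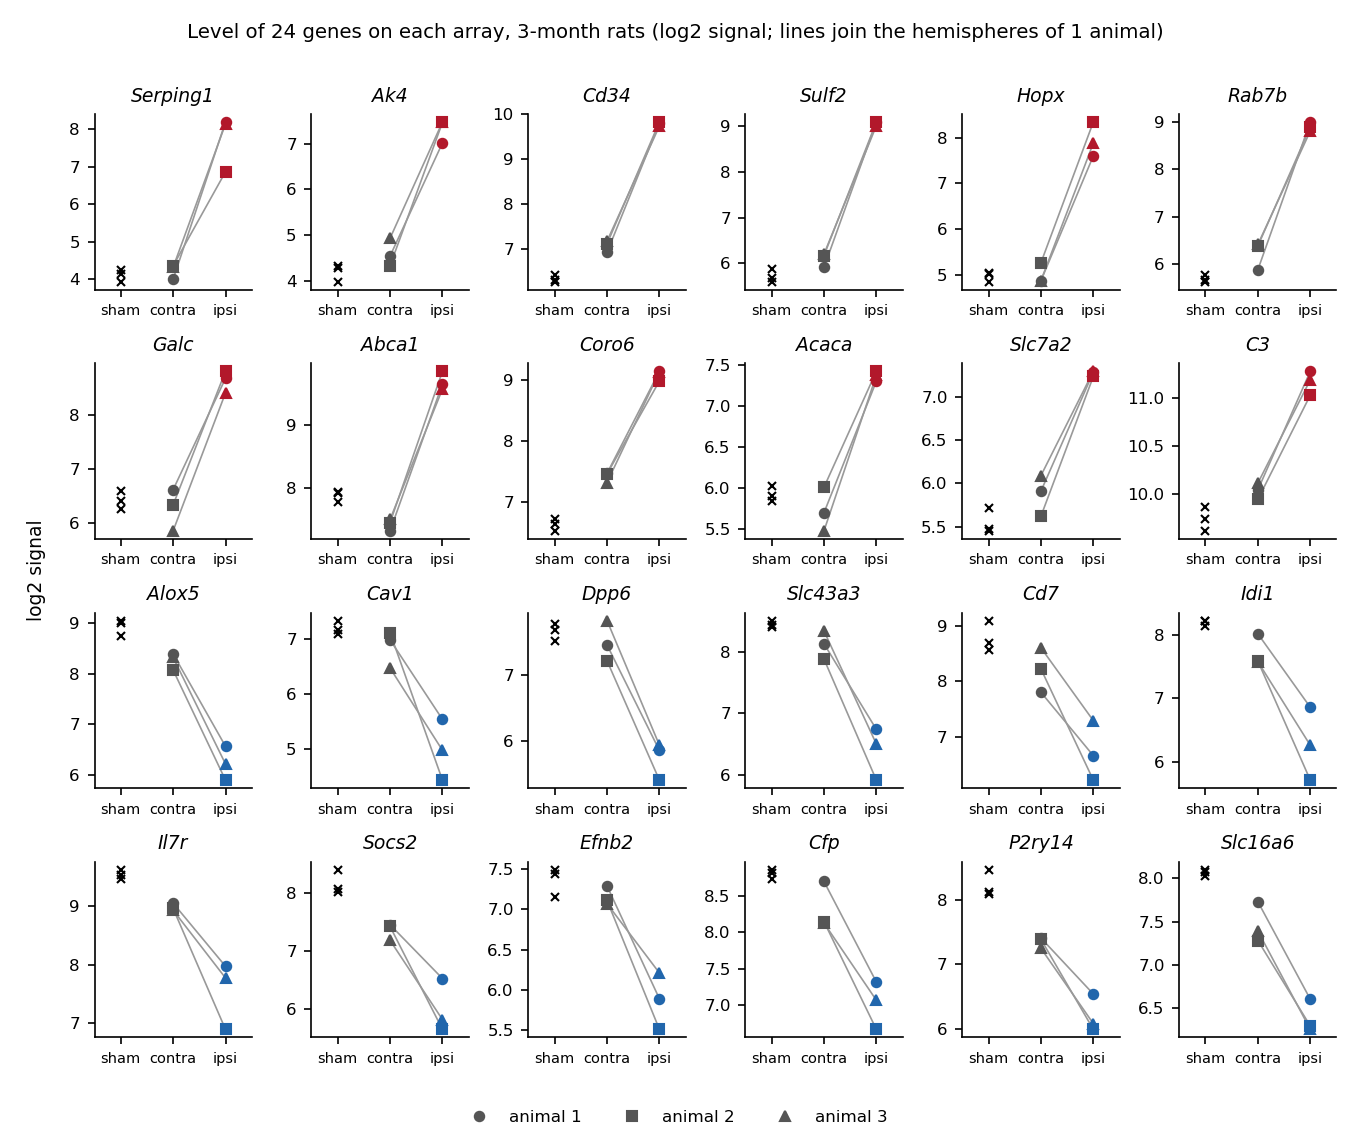
Log2 level of 24 genes on each array of 3-month rats, with sham, contralateral and ipsilateral arrays side by side and lines joining the hemispheres of an animal at day 14. Sulf2, Cd34 and Serping1 are among the genes whose 3 ipsilateral arrays all lie above the contralateral ones, and Alox5, Dpp6 and Cav1 among those whose ipsilateral arrays all lie below.

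Genes of the mitochondrial respiratory chain, which pass electrons to oxygen and make ATP, rose together by small amounts. Of 51 measured, 45 rose and none fell, with a median change of 0.51 beside -0.01 over all genes tested. The ATP synthase subunit Atp5po stood at 8.23, 7.88 and 8.33 contralaterally and 9.13, 9.07 and 9.04 ipsilaterally (0.94 ± 0.11, adjusted p = 4.2e-07). The complex I subunit Ndufa9 stood at 7.13, 6.71 and 6.90 and at 7.72, 7.76 and 7.70 (0.82 ± 0.11), and the cytochrome oxidase subunit Cox7b at 8.34, 8.27 and 8.30 and at 9.06, 9.09 and 9.11 (0.78 ± 0.11). The hemispheres did not overlap for any of these 3 subunits, and the ipsilateral arrays were close to each other. Ndufa10 (-0.13), Ndufv1 (0.08), Atp5f1c (0.18), Ndufs1 (0.20), Cycs (0.24) and Ndufa8 (0.30) were the 6 members not called.

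Other mitochondrial groups moved the same way in part. Of tricarboxylic acid cycle genes 42.9% rose and of mitochondrial ribosomal proteins 43.6%, against 13.2% of all genes tested. Of 21 genes of the tricarboxylic acid cycle 9 rose and none fell (median 0.31), among them Suclg1, a subunit of succinyl-CoA ligase (0.67 ± 0.09), and the malate dehydrogenase Mdh2 (0.49 ± 0.08). Of 55 mitochondrial ribosomal proteins 24 rose and none fell (median 0.29), led by Mrpl36 (0.78 ± 0.13) and Mrpl44 (0.68 ± 0.11). The latter count was 15 in the fit to the 6 arrays alone, with or without the animal as a block. Of 29 glycolysis and hypoxia genes 9 rose and 5 fell. Gpi, which interconverts the phosphates of glucose and fructose, rose from 8.17, 8.09 and 8.14 to 8.87, 8.91 and 8.73 (0.70 ± 0.09), and Pfkfb3, which makes an activator of glycolysis, rose by 1.28 ± 0.23. The prolyl hydroxylase P4ha1 of collagen synthesis fell from 10.46, 10.24 and 10.52 to 9.75, 9.57 and 9.79 (-0.70 ± 0.10). The glycolysis count depended on single arrays: 5 genes rose without ipsilateral replicate 1, ipsilateral replicate 2 or contralateral replicate 2, and 2 fell without ipsilateral replicate 3 or contralateral replicate 1.

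Genes of fatty acid use rose as well. Of 27 targets of the PPAR receptors and enzymes of fatty acid oxidation, 16 rose and none fell, with a median of 0.38. The regulator Pdk4, a kinase that switches off pyruvate dehydrogenase and spares glucose, stood at 5.99, 6.84 and 6.92 contralaterally and 9.62, 9.82 and 9.70 ipsilaterally, with animal 1 lowest on the contralateral side. Cpt1a, which admits fatty acids to mitochondria, rose by 0.62, and the oxidation enzymes Hadha, Hadhb and Hadh by 0.51, 0.47 and 0.80. The fatty acid carrier Fabp5 rose from 6.32, 6.32 and 6.28 to 7.87, 8.27 and 7.55 (1.59 ± 0.17), and the lipid droplet coat protein Plin2 by 1.10. Fabp4 was at or below the 30th percentile on all 3 contralateral arrays and at 5.43, 5.89 and 5.80 ipsilaterally, so its rise was at least 1.41 (2.12 ± 0.28 as fitted). Lpl, the lipoprotein lipase, likewise rose by at least 1.01, from a dim contralateral signal to 5.32, 5.55 and 5.05. Pdk1 (-0.01), Acadvl (0.06) and Cpt2 (0.08) were not called.

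Ak4, a mitochondrial adenylate kinase, stood at 4.54, 4.33 and 4.93 contralaterally and at 7.02, 7.47 and 7.48 ipsilaterally. The rise was 2.72 ± 0.18 (6.60-fold, adjusted p = 1.6e-12), and the related matrix enzyme Ak3 rose by 0.61 ± 0.11. Acaca, the acetyl-CoA carboxylase that starts fatty acid synthesis, rose from 5.70, 6.01 and 5.48 to 7.30, 7.42 and 7.37 (1.63 ± 0.11), with all ipsilateral arrays above the contralateral ones. Of the 15 genes of fatty acid synthesis and desaturation 3 rose (20.0%, against 13.2% of all genes tested) and 3 fell. Without ipsilateral replicate 1 only Acaca of this list was called higher. Acsl3, which activates fatty acids, fell from 7.96, 7.76 and 8.11 to 7.38, 6.85 and 7.12 (-0.83 ± 0.13).

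Of 34 genes of peroxide and glutathione metabolism 16 rose and none fell (median 0.38). The list also holds 5 genes of the NADPH oxidase, which makes superoxide, and 3 of the 16 rises were its subunits Ncf1 (0.92), Ncf4 (0.38) and Rac2 (0.38). The peroxiredoxins Prdx5, Prdx1, Prdx3 and Prdx6, which reduce peroxides, rose by 1.34, 0.87, 0.78 and 0.73, and the glutathione transferases Mgst1 and Gstp1 by 1.46 and 0.93. Prdx5 stood at 7.52, 7.37 and 7.79 contralaterally and at 8.87, 9.17 and 8.67 ipsilaterally, without overlap. Nfe2l2, the transcription factor of the antioxidant response, rose by 0.79. Genes known as its targets were split: Gclc, the catalytic subunit of the first enzyme of glutathione synthesis, rose by 0.71 and thioredoxin (Txn1) by 0.55, beside Prdx1 and Gstp1, while Hmox1 (-0.09), Nqo1 (0.01), Srxn1 (-0.03) and Gclm (-0.09), the partner of Gclc, were not called.

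Lysosomal genes rose broadly in the injured hemisphere. Of 39 lysosomal hydrolases and membrane proteins 26 rose and none fell (median 0.40), and of 24 genes of the proton pump (V-ATPase) and of lysosomal biogenesis 18 rose and none fell (median 0.42). Galc, which degrades the myelin lipid galactosylceramide, stood at 6.62, 6.34 and 5.86 contralaterally and 8.68, 8.81 and 8.41 ipsilaterally. Its rise of 2.36 ± 0.15 (5.13-fold, adjusted p = 1.3e-12) was the largest of the list, and its lowest array on each side was that of animal 3. Gaa, which degrades glycogen, rose from 8.11, 8.13 and 7.92 to 9.37, 9.35 and 9.34 (1.30 ± 0.08), with an ipsilateral spread far below the difference. Acp5, the acid phosphatase known from osteoclasts, rose by 1.36 ± 0.19.

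The lipid-degrading members included Hexa and its activator Gm2a, which degrade gangliosides (1.03 and 0.88), Glb1, the acid beta-galactosidase (0.75), the ceramidase Asah1 (0.73 ± 0.09) and Psap, the precursor of the saposins (0.55). The cathepsins Ctsk, Ctsd, Ctsb and Ctsz, which degrade proteins, rose by 1.19, 0.70, 0.50 and 0.44, whereas Ctsl (0.01), Ctsh (0.20) and Ctsf (0.23) were not called. The abundant membrane proteins Lamp1 (0.04) and Lamp2 (-0.13) were not called either. Of the proton pump, Atp6v1e1 rose from 7.69, 7.30 and 7.48 to 8.28, 8.38 and 8.15 (0.78 ± 0.12), Atp6v1d by 0.74 ± 0.11 and Atp6v0d1 by 0.70 ± 0.09. Mitf, a transcription factor of lysosomal genes, rose by 0.53 ± 0.09 and its relative Tfec by at least 0.99 (1.33 ± 0.17 as fitted), while Tfeb stood at 0.13 and was not called. Tfec was at or below the 30th percentile on all 3 contralateral arrays and reached 5.50, 4.92 and 5.43 ipsilaterally.

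Because these genes moved together, their promoters were read for the palindrome TCACGTGA, the core that factors of the Mitf and Tfeb family are known to bind. Sequences were those of RefSeq on the assembly GRCr8, over the 250 bases before each gene's start, and both strands were searched. The letters were present in 0.657% of all 33469 promoters of the table and in 4 of 50 promoters of the lysosomal and V-ATPase genes (8.0%). Their share was 1.29% among promoters of the genes tested and 1.54% among those of genes that rose. Of 34 promoters of members that rose, 3 held them, and these are shown over 60 bases on the gene's strand with the match in capitals; a match is a description, not a site or a cause.
Galc, chr6:123245560-123245619, minus strand: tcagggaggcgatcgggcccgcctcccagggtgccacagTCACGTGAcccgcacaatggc
Ctsd, chr1:206968822-206968881, minus strand: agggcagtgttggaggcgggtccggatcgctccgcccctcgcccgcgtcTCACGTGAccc
Atp6v0d1, chr19:50357268-50357327, minus strand: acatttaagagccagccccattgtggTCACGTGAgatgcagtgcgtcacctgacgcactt
Most members that rose therefore lacked these letters in the window searched.

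Interferon-stimulated genes, the antiviral effectors switched on by interferon receptors, rose in part. Of 33 measured, 17 rose and none fell, with a median of 0.31. The antiviral GTPase Mx1 stood at 5.07, 4.88 and 5.12 contralaterally, 7.45, 7.40 and 6.97 ipsilaterally and 6.17 on average in sham. Mx2 stood at 6.56, 5.71 and 5.72 contralaterally, 7.64, 7.86 and 7.59 ipsilaterally and 7.23 in sham, with animal 1 highest on the contralateral side. Usp18, which removes the ubiquitin-like protein Isg15, was at or below the 30th percentile on all contralateral arrays and at 4.83, 4.58 and 5.18 ipsilaterally, so its rise was at least 0.57 (1.46 ± 0.18 as fitted). For these 3 genes the sham mean (4.53 for Usp18) lay above every contralateral array. A number in the sample codes also differs between sham and stroke arrays, so that number and group cannot be told apart.

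The DNA sensor Zbp1, the oligoadenylate synthetase Oas1a and the mitochondrial protein Ifi27 rose by 1.05, 1.03 and 1.03, and Isg15, Ifit1 and Ifit3 by 0.67, 0.74 and 0.73. Not called were Rsad2 (0.07), Cxcl10 (-0.10), Bst2 (0.03), Ifi47 (0.01) and Igtp (-0.14), of which the last pair are GTPases known from the response to interferon gamma. Of 17 interferon regulators and receptors 5 rose and none fell, led by Irf7, which amplifies type I interferon synthesis (5.69, 5.40 and 5.40 contralaterally, 6.65, 7.19 and 6.60 ipsilaterally, 1.32 ± 0.14). Stat3 rose by 0.62 ± 0.11 and the kinase Jak2 by 0.54 ± 0.10.

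The promoters of these genes were read for GAAA followed by any 2 bases and GAAA again, the core of the interferon-stimulated response element, in the same way. They were present in 3.41% of all promoters, in 2.85% of those of the genes tested and in 15 of 24 promoters of interferon-stimulated genes matched (62.5%), 7 of them among the 10 promoters of genes that rose (70.0%). The 4 shown are of genes that rose by 1.03 ± 0.16 (Ifi27 and Oas1a), 0.73 ± 0.22 (Ifit3) and 0.68 ± 0.15 (Gbp2, a guanylate-binding protein); in the last pair the match lies on the opposite strand.
Ifi27, chr6:128355203-128355262, plus strand: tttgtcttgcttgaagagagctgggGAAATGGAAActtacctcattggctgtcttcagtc
Oas1a, chr12:41330406-41330465, plus strand: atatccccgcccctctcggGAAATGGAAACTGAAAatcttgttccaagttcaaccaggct
Ifit3, chr1:241527257-241527316, plus strand: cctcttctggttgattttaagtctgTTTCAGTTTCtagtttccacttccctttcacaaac
Gbp2, chr2:234005667-234005726, plus strand: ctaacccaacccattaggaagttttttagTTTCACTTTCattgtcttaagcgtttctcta
In Oas1a 2 overlapping matches give the longer run of capitals.

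Sterol genes moved in opposite directions by role. Of 22 genes of lipoproteins, LXR targets and sterol export 10 rose and 2 fell (median 0.22). The 2 falls, Vldlr and Clu, were each lost when any of 4 single arrays was left out, both of them without ipsilateral replicate 2 or contralateral replicate 3. Of 19 genes of sterol synthesis and uptake none rose and 8 fell (median -0.23). The exporter Abca1 stood at 7.33, 7.46 and 7.51 contralaterally and at 9.64, 9.84 and 9.56 ipsilaterally, a rise of 2.25 ± 0.08 (4.74-fold) with little spread. Idi1, an isomerase of the mevalonate pathway, fell from 8.02, 7.59 and 7.58 to 6.86, 5.71 and 6.26 (-1.45 ± 0.21, adjusted p = 6.2e-06). The sterol oxidase Msmo1 fell from 8.46, 7.65 and 8.39 to 7.34, 6.47 and 6.99 (-1.24 ± 0.19), and the demethylase Cyp51 from 8.15, 7.60 and 7.85 to 7.38, 6.87 and 6.92 (-0.81 ± 0.15). Animal 2 was the lowest on the ipsilateral side for all 3 enzymes, and within each animal the ipsilateral array was lower.

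The epoxidase Sqle and the desaturase Sc5d each fell by 0.73 on the log2 scale, and the pathway's transcription factor Srebf2, its inhibitor Insig1 and the sterol carrier Stard4 stood at -0.62, -0.61 and -0.41. Steps that were not called lay before and between the enzymes that fell: Mvk (-0.01), Mvd (0.04), Fdps (-0.34), Fdft1 (-0.23), Lss (-0.14) and Nsdhl (0.35). The box CCAAT, read by the factor NF-Y that is known to act beside the sterol regulators, was present on either strand in 34.0% of all promoters, in 35.2% of those of the genes tested and in 12 of 15 promoters of the sterol list. It is shown for 3 members that fell, with the reverse letters ATTGG where it lies on the opposite strand.
Idi1, chr17:66547528-66547587, minus strand: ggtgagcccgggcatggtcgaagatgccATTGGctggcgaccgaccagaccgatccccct
Msmo1, chr16:29747017-29747076, plus strand: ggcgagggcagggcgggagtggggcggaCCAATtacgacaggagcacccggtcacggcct
Sc5d, chr8:51538333-51538392, minus strand: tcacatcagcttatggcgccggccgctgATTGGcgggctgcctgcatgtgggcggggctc
So short a box is common, as its share of all promoters shows.

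Complement genes did not move as 1 group. Of 11 tested, 4 rose and 2 fell. The inhibitor of the C1 proteases, Serping1, stood at 4.0, 4.36 and 4.32 contralaterally and at 8.20, 6.87 and 8.15 ipsilaterally, with animal 2 lowest among the injured hemispheres. Its rise was 3.51 ± 0.21 as fitted, from contralateral signals close to the 30th percentile of the arrays, with 1 of the 3 at or below it. The protease C1r rose from 5.77, 5.24 and 5.13 to 6.87, 6.90 and 6.59 (1.41 ± 0.12) and the central component C3 from 10.04, 9.94 and 10.11 to 11.28, 11.03 and 11.19 (1.14 ± 0.10). In the alternative pathway, factor D (Cfd) rose by 2.54 ± 0.24, and properdin (Cfp), which stabilises the convertase, fell from 8.70, 8.15 and 8.13 to 7.32, 6.67 and 7.07 (-1.31 ± 0.17). Clu, which inhibits the terminal complex, was lower by 0.28, a call lost without ipsilateral replicate 1 or 2 or contralateral replicate 1 or 3.

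Among 33 interleukins and their receptors 10 rose and 8 fell. The antagonist Il1rn rose by 2.31 ± 0.30 and Il13ra1, a receptor chain for interleukins 4 and 13, from 5.51, 5.81 and 5.89 to 7.24, 7.14 and 7.35 (1.50 ± 0.11). Il6 fell from 7.21, 7.79 and 7.33 to 5.75, 5.28 and 5.92 (-1.79 ± 0.19), Il1a from 10.20, 10.31 and 10.37 to 9.47, 9.80 and 9.19 (-0.81 ± 0.14), and Il7r, the interleukin-7 receptor, from 9.05, 8.96 and 8.93 to 7.97, 6.89 and 7.77 (-1.44 ± 0.17). The cytokine Tnf fell from 10.83, 10.71 and 10.63 to 10.10, 9.84 and 9.44 (-0.93 ± 0.16). None of these 4 falling genes overlapped between hemispheres. Socs2, an inhibitor of cytokine signalling, fell from 7.45, 7.42 and 7.18 to 6.52, 5.64 and 5.81 (-1.36 ± 0.17).

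Of 21 chemokines 7 rose and none fell, although the median change was 0.00. Cxcl13, which attracts B cells, stood at 4.69, 5.2 and 4.44 contralaterally and at 6.71, 6.69 and 7.05 ipsilaterally (2.04 ± 0.26). Cxcl16, a membrane-bound chemokine and scavenger receptor, rose from 7.75, 7.84 and 7.95 to 9.41, 9.35 and 9.29 (1.50 ± 0.10). Of chemokines that attract monocytes, Ccl12 rose by 0.76, and Ccl2 (-0.02), Ccl3 (-0.08), Ccl4 (-0.11) and Ccl5 (0.06) were not called. Of 20 chemotactic receptors 1 rose, Cxcr4, from 6.98, 7.29 and 7.51 to 8.78, 9.54 and 8.84 (1.79 ± 0.34), and 6 fell, among them the receptor for platelet-activating factor Ptafr (-0.49 ± 0.11) and the fractalkine receptor Cx3cr1 (-0.45 ± 0.08). The 6 were 3 without contralateral replicate 2 and 3 in the fit to the 6 arrays alone with the animal as a block.

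Among receptors for nucleotides and other small ligands more genes fell than rose. Of 27 purinergic and other G protein-coupled receptors, with enzymes and regulators of their signals such as Entpd1, Nt5e and Rgs16, 4 rose, 11 fell and 12 were not called (median -0.17). P2ry14, a receptor for UDP-sugars, fell from 7.41, 7.39 and 7.25 to 6.54, 5.99 and 6.08 (-1.14 ± 0.15), the ADP receptor P2ry13 from 10.12, 10.08 and 9.96 to 9.40, 8.70 and 9.06 (-1.0 ± 0.14) and the histamine receptor Hrh2 from 7.45, 7.53 and 7.81 to 6.96, 6.50 and 6.76 (-0.85 ± 0.13). P2ry12 (-0.47), P2ry6 (-0.53) and the ATP-gated channel P2rx7 (-0.44) fell by less. Entpd1, which degrades ATP and ADP outside the cell, fell by 0.70 on the log2 scale, whereas Nt5e, which makes adenosine from AMP, rose from 7.43, 7.12 and 7.45 to 8.25, 7.97 and 8.10 (0.78 ± 0.10). The ATP-gated channel P2rx4 rose from 6.82, 7.06 and 7.36 to 8.33, 8.46 and 8.19 (1.24 ± 0.11), and the proton-sensing receptor Gpr65 from 5.59, 5.01 and 5.30 to 6.64, 6.94 and 6.55 (1.41 ± 0.13).

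Eicosanoid genes, which make and sense leukotrienes and prostaglandins, held 1 of the largest falls. Alox5, the 5-lipoxygenase, stood at 8.39, 8.07 and 8.32 contralaterally and at 6.56, 5.89 and 6.21 ipsilaterally, a change of -2.04 ± 0.15 (4.11-fold lower). Ltc4s, which makes leukotriene C4, fell from 9.08, 9.06 and 9.32 to 8.37, 8.08 and 8.15 (-0.96 ± 0.12), and Ptgs1, a cyclooxygenase, from 9.64, 9.49 and 9.42 to 9.06, 8.32 and 8.65 (-0.84 ± 0.14). The prostaglandin receptor Ptger4 rose by 0.56 ± 0.12. Of the 25 genes 4 rose and 6 fell, and 2 rose without ipsilateral replicate 1 or contralateral replicate 3.

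Receptors of uptake and innate recognition changed gene by gene. Axl, a receptor kinase for bridging ligands on dying cells, stood at 6.65, 6.91 and 6.54 contralaterally, 9.82, 9.84 and 9.64 ipsilaterally and 5.86 on average in sham (3.07 ± 0.18), while its relative Mertk fell from 9.74, 9.64 and 9.87 to 9.40, 9.21 and 9.23 (-0.47 ± 0.09). The scavenger receptor Olr1 rose by 1.16 ± 0.15, and the lectin receptor Clec5a from 4.75, 5.38 and 4.53 to 6.21, 6.22 and 6.07 (1.28 ± 0.16). Tlr4, the receptor for lipopolysaccharide, fell from 8.07, 7.84 and 8.05 to 7.62, 7.45 and 7.72 (-0.39 ± 0.09), and the DNA sensor Aim2 rose by 0.77 ± 0.16. Cd86, a costimulatory ligand for T cells, rose from 7.86, 8.14 and 7.65 to 9.0, 9.14 and 8.83 (1.10 ± 0.10), and Havcr2, an inhibitory receptor also known as Tim-3, fell from 9.56, 9.61 and 9.64 to 9.12, 9.03 and 8.96 (-0.57 ± 0.10). Inpp5d, the lipid phosphatase that restrains such receptors, fell by 0.48 on the log2 scale (standard error 0.08).

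Guidance and adhesion genes split within families. The semaphorin receptors Nrp1 and Nrp2 rose, Nrp1 from 5.54, 5.76 and 5.66 to 7.59, 7.52 and 7.31 (1.82 ± 0.14) and Nrp2 by 1.00 ± 0.13, as did Plxnd1 by 0.80 ± 0.18. The ligands Efnb2, an ephrin, and Sema4a, a semaphorin, fell, Efnb2 from 7.29, 7.11 and 7.07 to 5.89, 5.51 and 6.21 (-1.29 ± 0.18) and Sema4a from 8.73, 8.64 and 8.74 to 7.88, 7.48 and 7.75 (-1.0 ± 0.11). Epha2, an ephrin receptor, fell by 0.90 (standard error 0.14). Of the 20 genes of this list 4 rose and 6 fell.

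Of 31 integrins and adhesion molecules 10 rose and 5 fell, and 3 fell without ipsilateral replicate 2 or without ipsilateral replicate 3, and 9 after quantile normalisation anew. Cadm1, an adhesion molecule of synapses and mast cells, rose from 6.34, 6.07 and 6.61 to 7.82, 7.68 and 7.51 (1.33 ± 0.12) and Alcam, a ligand of Cd6, from 7.09, 7.41 and 7.37 to 8.40, 8.48 and 8.50 (1.17 ± 0.14). Itgam, the alpha chain of complement receptor 3, rose from 9.62, 9.50 and 9.57 to 10.13, 10.31 and 10.08 (0.60 ± 0.08). Selplg, the ligand of P-selectin, fell from 11.40, 11.27 and 11.36 to 10.52, 9.89 and 10.39 (-1.08 ± 0.14), and F11r, a junctional adhesion molecule, from 9.47, 9.14 and 9.39 to 8.78, 8.44 and 8.54 (-0.74 ± 0.12).

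Of 34 genes of the actin cytoskeleton 14 rose (41.2%, against 13.2% of all genes tested) and none fell (median 0.22). In the fit to the 6 arrays alone with the animal as a block 9 rose. The coronin Coro6 stood at 7.47, 7.46 and 7.32 contralaterally and at 9.14, 8.98 and 9.13 ipsilaterally, a rise of 1.67 ± 0.11 (3.17-fold) without overlap. Subunits of the Arp2/3 complex, which nucleates branched actin, rose by 0.58 (Arpc2), 0.51 (Arpc3), 0.48 (Arpc1b) and 0.37 (Arpc5), and cofilin (Cfl1) and profilin (Pfn1) by 0.59 and 0.45. Actb (0.06), Tmsb4x (0.19), Coro1a (0.10) and Tln1 (-0.01) were not called. Of 37 Rab GTPases and sorting genes 13 rose and 2 fell (median 0.13), and neither fall, of Rab3a and Snx18, was called without ipsilateral replicate 2, contralateral replicate 1 or contralateral replicate 3. Rab7b, a GTPase of late endosomes, rose from 5.89, 6.39 and 6.42 to 8.99, 8.88 and 8.80 (2.66 ± 0.16, 6.31-fold), Rab32, which acts on lysosome-related organelles, by 0.86 ± 0.11 and Rab34 by 0.75 ± 0.13.

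Growth factors and matrix enzymes included Plau, the urokinase that activates plasmin (2.45 ± 0.16), Csf1, the survival factor of macrophages (8.11, 8.54 and 8.16 contralaterally, 9.54, 9.81 and 9.25 ipsilaterally, 1.26 ± 0.17) and Timp1, an inhibitor of metalloproteinases (1.66 ± 0.15). Mmp8, a collagenase also on the neutrophil list, was at or below the 30th percentile on the contralateral arrays. It rose by at least 0.90 (1.24 ± 0.22 as fitted). Hbegf, a ligand of the epidermal growth factor receptor, fell from 6.68, 6.55 and 6.81 to 5.87, 6.13 and 5.57 (-0.82 ± 0.17). Of 28 matrix genes 9 rose and 2 fell, Col4a1 and Adamts1, neither of which was called without ipsilateral replicate 1. Of 27 growth factors 9 rose and 4 fell, of which 2 fell without ipsilateral replicate 1. The shares that rose were 32.1% of matrix genes, 33.3% of growth factors and 22.2% of nutrient transporters, against 13.2% of all genes tested. Among 27 nutrient transporters 6 rose and 6 fell: Slc7a2, a carrier of arginine and lysine, rose from 5.91, 5.62 and 6.09 to 7.29, 7.24 and 7.30 (1.40 ± 0.12), and Slc16a6, of the monocarboxylate carriers, fell from 7.73, 7.28 and 7.39 to 6.60, 6.29 and 6.25 (-1.09 ± 0.13). The iron transporter Slc11a1 of phagosomes fell from 10.27, 10.26 and 10.13 to 9.82, 9.65 and 9.74 (-0.48 ± 0.09).

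Of 30 proteasome subunits 15 rose and none fell (median 0.27), led by Psma1 (0.66 ± 0.12) and Psmb1 (0.59 ± 0.10). The share that rose was 50.0%, against 13.2% of all genes tested. The proteasome count depended on single arrays: it was 8 without ipsilateral replicate 2, 8 without contralateral replicate 2 and 9 without contralateral replicate 3. It was 6 in the fit to the 6 arrays alone with the animal as a block. Of 27 chaperones and genes of the unfolded protein response 1 rose and 6 fell (median -0.15), and 13 fell after quantile normalisation anew. The share called was 25.9%, against 20.3% of all genes tested. The mitochondrial chaperone Hspd1 fell from 10.97, 11.01 and 11.26 to 10.62, 10.23 and 10.64 (-0.59 ± 0.11), the small chaperone Hspb1 from 11.31, 11.30 and 11.63 to 10.94, 10.54 and 11.14 (-0.54 ± 0.11) and the stress factor Ddit3 from 10.45, 10.11 and 10.27 to 10.02, 9.57 and 9.63 (-0.54 ± 0.11). Sdf2l1, of the endoplasmic reticulum, rose by 0.58 ± 0.13.

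Cell cycle genes showed no common movement, with 4 of 39 higher, 4 lower and a median of 0.00. The share called was 20.5%, against 20.3% of all genes tested. The D cyclins Ccnd2 (7.69, 7.46 and 7.53 contralaterally, 6.70, 6.72 and 6.49 ipsilaterally, -0.93 ± 0.13) and Ccnd1 (8.56, 8.42 and 8.31, then 7.62, 7.72 and 7.56, -0.80 ± 0.10) fell, while their partners Cdk6 (0.62 ± 0.14) and Cdk4 (0.49 ± 0.11) rose. The other calls, Rrm1, Ccne2, Cdkn1a and Cdkn2c, were each lost when single arrays were left out, so that 2 genes fell without ipsilateral replicate 2, ipsilateral replicate 3 or contralateral replicate 3, and 2 rose without ipsilateral replicate 1. Mitotic genes such as Cdk1 (-0.03), Plk1 (0.15) and Aurkb (0.28) were not called.

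**Figure D4:**
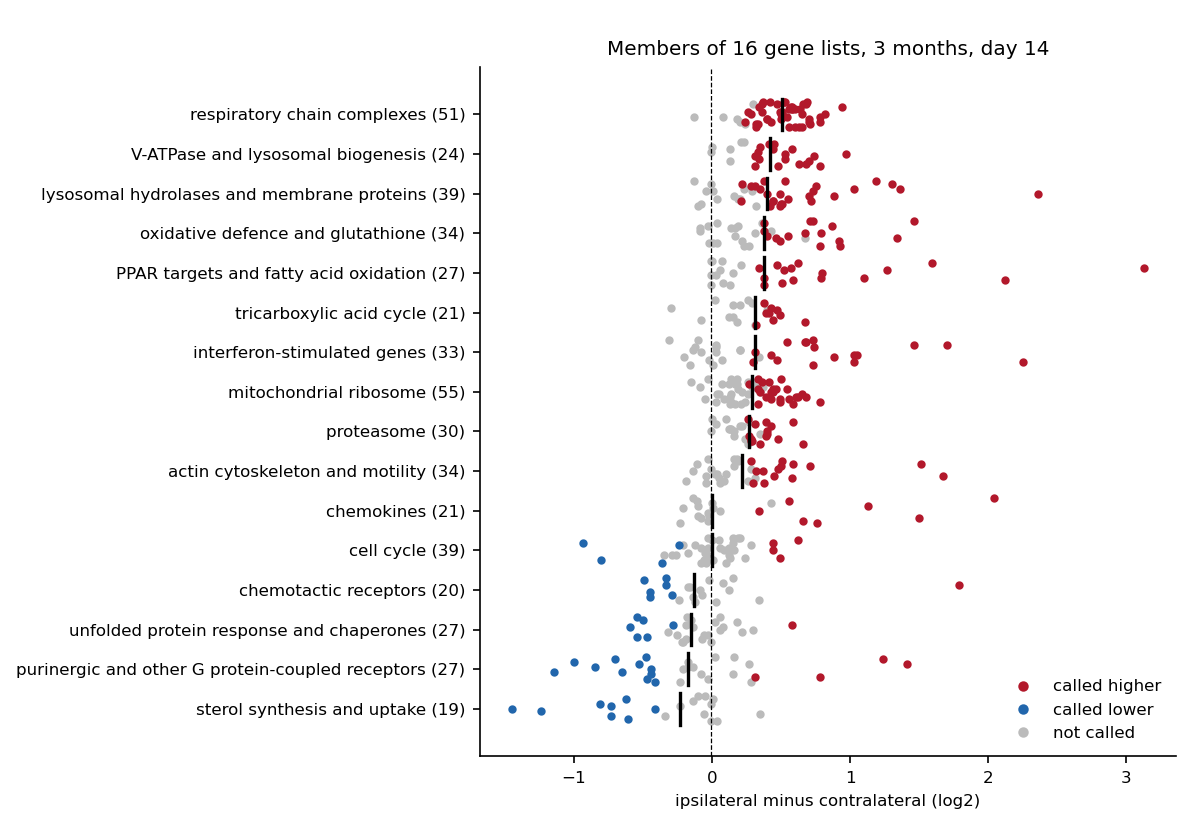
Log2 change of every tested member of 16 gene lists (points, coloured by call) with the median of each list (line). The respiratory chain (median 0.51, 45 of 51 higher) lies to the right and sterol synthesis (median -0.23, 8 of 19 lower) and the G protein-coupled receptors (median -0.17, 11 of 27 lower) to the left, beside a median of -0.01 over all genes tested.

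Several genes of other cells were lower in the injured hemisphere. Contralateral replicate 1 or 3 was the highest of the 6 compared arrays for the falling genes whose levels follow. S100b, of astrocytes and oligodendrocytes, stood at 8.03, 5.73 and 6.08 contralaterally and 5.65, 5.51 and 5.45 ipsilaterally, so that contralateral replicate 1 alone was high; its change was -1.08 ± 0.29 (adjusted p = 0.0080) and -0.37 (adjusted p = 0.068) without that array. Snap25, a synaptic protein, stood at 5.90, 4.63 and 5.02 and at 4.35, 4.31 and 4.34 (-0.85 ± 0.18). The neutrophil calgranulins S100a8 and S100a9 stood at 8.0, 7.83 and 9.74 and at 8.65, 8.38 and 10.40 contralaterally, highest in replicate 3, and at 7.14, 7.30 and 6.80 and at 7.51, 8.03 and 7.11 ipsilaterally. On the sham arrays S100a8 stood at 9.02, 9.40 and 7.34 and S100a9 at 9.38, 9.81 and 7.63. The hemisphere changes of S100a8 and S100a9 were -1.45 ± 0.51 (adjusted p = 0.045) and -1.59 ± 0.52 (adjusted p = 0.029). Without contralateral replicate 3 they were -0.84 (adjusted p = 0.30) and -0.96 (adjusted p = 0.23). The call of S100a8 was also lost without ipsilateral replicate 1, 2 or 3, and that of S100a9 without ipsilateral replicate 1 or 3. Of the 15 neutrophil genes 1 rose, Mmp8 (1.24), 4 fell, S100a8 and S100a9 among them, and 10 were not called. The share called was 33.3%, against 20.3% of all genes tested. Of the 14 genes of T and NK cells tested 2 rose (14.3%, against 13.2% of all genes tested). These were Cd8a (4.81, 4.44 and 4.81, then 5.27, 6.07 and 5.57, 0.95 ± 0.17) and Cd8b (0.88 ± 0.19). Cd3d, Cd3g, Cd28, Gzma, Klrd1, Prf1 and Trat1 were at or below the 30th percentile on all 6 arrays. Of the 8 genes of border-associated macrophages tested 2 rose, Folr2 and Pf4, 1 fell and 5 were not called (37.5% called, against 20.3% of all genes tested). Folr2 went from 6.14, 6.32 and 5.75 to 6.77, 6.94 and 6.67, a call lost when any 1 ipsilateral replicate was left out. Pf4 went from 7.76, 8.04 and 7.99 to 8.45, 8.84 and 8.48. The fall was that of Lyve1, a hyaluronan receptor, from 8.12, 7.33 and 7.86 to 6.82, 6.0 and 6.38 (-1.37 ± 0.28).

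The hemisphere effect of day 14 was then set against that of day 3, in other rats of the same age, by a test of the difference of both effects. The difference passed for 445 genes (3.81%): the effect was more positive on day 14 for 300 (2.57%) and more negative for 145 (1.24%). Of the 300, 180 rose on day 14, 14 fell and 106 were not called there; of the 145, 10 rose, 36 fell and 99 were not called. At an unadjusted p under 0.05 the number was 2031.

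Several genes with a positive difference had changed little, or the other way, on day 3. C3 stood at -0.47 on day 3 and 1.14 on day 14 (difference 1.61 ± 0.14, adjusted p = 2e-08), Slc7a2 at -0.17 and 1.40 (1.57 ± 0.17), Lag3 at -0.51 and 1.38 (1.89 ± 0.20), Coro6 at 0.21 and 1.67 (1.46 ± 0.16), Acaca at 0.20 and 1.63 (1.43 ± 0.16) and Gaa at 0.17 and 1.30 (1.13 ± 0.12). Serping1 stood at 0.36 and 3.51 (3.16 ± 0.29, adjusted p = 7.9e-08) and Ak4 at 0.65 and 2.72 (2.07 ± 0.25). Cd34, Pdk4 and Rab7b had risen by 0.80, 1.25 and 1.03 on day 3 and by 2.72, 3.13 and 2.66 on day 14, with differences of 1.92 ± 0.21, 1.88 ± 0.26 and 1.63 ± 0.23. Among lists, the effect was more positive on day 14 for 15 of 39 lysosomal genes, with a median change of 0.04 on day 3 and 0.40 on day 14. Of these, 10 rose on day 14, and Ctse, Ctsf, Ctsh, Gla and Lamp2, at -0.58 to -0.33 on day 3, were not called on day 14. The effect was also more positive for 5 of 33 interferon-stimulated genes and 5 of 17 interferon regulators and receptors, among them Mx1 (1.30 ± 0.29) and Irf7 (0.83 ± 0.20).

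The largest negative differences were in genes high on day 3. S100a9 and S100a8 stood at 3.02 and 2.97 on day 3 and at -1.59 and -1.45 on day 14 (differences -4.61 ± 0.74 and -4.42 ± 0.73). Slpi, a protease inhibitor of neutrophils and epithelia, stood at 3.28 and -0.21 (-3.48 ± 0.53), Acod1, which makes itaconate, at 2.52 and -0.19 (-2.72 ± 0.58, adjusted p = 0.0056), S100a6 at 2.53 and -0.11 (-2.64 ± 0.40) and Lrg1, a secreted glycoprotein of neutrophil granules and liver, at 2.24 and -0.18 (-2.42 ± 0.35). The last 4 were not called on day 14, and their hemispheres overlapped there. The effect was more negative on day 14 for 14 of 39 cell cycle genes, with a median of 0.45 on day 3 and 0.00 on day 14. The marker lists of other myeloid cells had lower medians on day 14, and they hold S100a8, S100a9 and S100a6 themselves. Genes of infiltrating monocytes and macrophages, with S100a6, had a median of 1.44 on day 3 and 0.41 on day 14 (6 of 17 more negative, 1 more positive). Those of border-associated macrophages stood at 1.35 and -0.03 (5 of 8 more negative). Those of neutrophils stood at 0.22 and -0.21 (3 of 15 more negative: S100a8, S100a9 and Cxcr2). Lyve1, on the list of border-associated macrophages, stood at 0.65 and -1.37 (-2.01 ± 0.39). The part of these markers in the differences between days was not tested.

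The count of 445 was 255 without ipsilateral replicate 1 of day 14, 286 without ipsilateral replicate 2 of day 3 and 281 without contralateral replicate 1 of day 3, and 232 in a fit to the 15 arrays of 3-month rats. The number in the sample codes differs between the days, so number and day cannot be told apart, and its part in these differences was not tested.

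**Figure D5:**
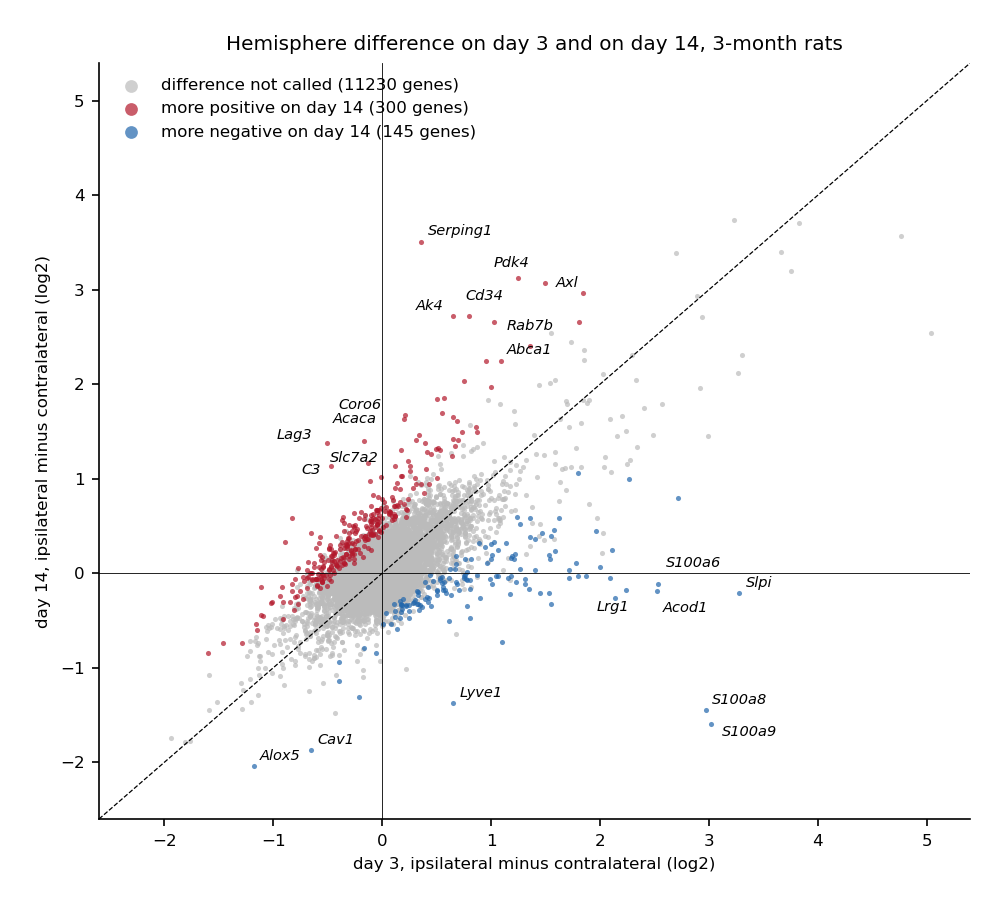
Hemisphere effect (log2, ipsilateral minus contralateral) on day 3 against day 14 in 3-month rats, for the 11675 genes tested, with the 445 genes whose effects differed coloured by direction. Serping1, Lag3 and C3 lie near or left of 0 on day 3 and above 1 on day 14, and S100a8 and S100a9 lie at about 3 on day 3 and below -1 on day 14.

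Set against rats of 12 months on day 14, the hemisphere effect differed for 1 gene (0.00857% of those tested), Serping1, with 3.51 at 3 months and 1.07 at 12 months (difference 2.44 ± 0.29, limma's adjusted p = 4.4e-05). Its ipsilateral mean was 7.74 ± 0.75 (SD, n = 3) at 3 months and 5.38 ± 0.31 at 12 months, over contralateral means of 4.23 ± 0.20 and 4.31 ± 0.11. At an unadjusted p under 0.05 the effects of 1045 genes (8.95%) differed, and a p that misses the threshold does not show that the effects were alike. S100a11, a calcium-binding protein on the list of infiltrating monocytes and macrophages, stood at 5.18, 7.18 and 5.73 contralaterally and 8.59, 8.49 and 8.65 ipsilaterally, with effects of 2.54 at 3 months and 0.73 at 12 months. It did not pass the test of the difference, nor did Clec5a (1.28 and 0.32) or Mmp8 (1.24 and 0.00). The number in the sample codes differs between the ages too, so number and age cannot be told apart. The count of 1 was 4 without contralateral replicate 1 of 3 months, 8 without contralateral replicate 2 of 3 months, 4 without ipsilateral replicate 2 of 12 months and 2 without contralateral replicate 2 of 12 months.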

How the data were processed

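The authors deposited log2 expression values of 29214 probe sets, made with Affymetrix Expression Console and RMA, per the submitters' processing notes (versions not stated). These values were used without further scaling. Probe sets were named through the platform annotation, updated against RefSeq (GRCr8): 15310 had 1 symbol, 323 several and 13581 were not listed, and the latter groups were left out. Of 14506 genes named, 11675 had a probe set above the 30th percentile of its array on at least 3 of 30 arrays, and the probe set with the highest mean was tested. Promoters of 9278 of these matched.

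Differences of group means were tested with limma 3.58.1 (lmFit and eBayes, R 4.3.3) in 1 model of 10 groups of 3 arrays, and Benjamini-Hochberg adjustment over all genes tested; there were 20 residual and 8.8 prior degrees of freedom. A ± after a change is the standard error. Where all 3 arrays of a side lay at or below the 30th percentile, the difference is given as a bound, a rule added after the data were seen (57 genes). Summaries used Python 3.11.15, pandas 2.3.3 and matplotlib 3.10.9. The steps were tested on simulated data.

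The sample codes tie both hemispheres of an animal to 1 replicate number, so the numbers pair the samples. The deviations of paired arrays from their group means correlated at 0.041, -0.019 and 0.072, and duplicateCorrelation gave 0.072 over the 12 pairs of the series; the main model had no animal term. The sample codes hold a further number that differs between sham and stroke arrays, between days and between ages. The sources used here do not explain it. Number and group cannot be told apart there, so sham levels are given without a test.

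Named genes were the 24 largest rises and 16 largest falls that went the same way in all 3 animals, up to 3 called genes per direction in each of 45 process and 14 cell type lists, and up to 6 per direction for each difference of effects. Other members were named to show what a list's count holds, and promoter windows to show matches among called members, after their values were seen. The members and lists were chosen with earlier results of these data known. Lists are described by counts and medians, without a test. Alternatives were the animal block, fits to fewer arrays, other filters on dim probe sets, the mean of probe sets, other scalings, limma's trend option and leaving out each replicate.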

Additional observations from a re-analysis of the deposited data

Results flagged for a closer look

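In 3-month rats the hemisphere effect differed between day 14 and day 3, by limma's test of the difference, for 12 genes named by their size. The differences (day 14 minus day 3) were positive for Serping1 (3.16), Ak4 (2.07), Cd34 (1.92), Lag3 (1.89), Pdk4 (1.88) and Rab7b (1.63). They were negative for S100a9 (-4.61), S100a8 (-4.42), Slpi (-3.48), Acod1 (-2.72), S100a6 (-2.64) and Lrg1 (-2.42). Between the ages on day 14 the effect differed for Serping1 alone, by 2.44 (3 minus 12 months). Serping1 is therefore the gene whose effect differed in both tests, with the change of 3-month rats on day 14 as the larger in each. Both tests use the same arrays of 3-month rats on day 14, so they are not independent. These 13 differences passed the test under each alternative run. S100a8 and S100a9 belong to neutrophils, whose marker genes were highest on contralateral replicate 3 of day 14, and both genes passed the test of the difference without that array.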

How the results depend on the processing

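The count of 2365 genes that differed between the hemispheres was 1362 in the fit to the 6 compared arrays alone with the animal as a block and 1412 in that fit without it, which leave 2 and 4 residual degrees of freedom. With the pairing as a fixed block over the 24 stroke arrays it was 2232, of which 2105 were shared, and as a random block 2584. It ran from 1641 to 2183 when replicates were left out. The count of 445 genes whose effect differed between days was 232 in the fit to the 15 arrays of 3-month rats, 365 and 545 with the animal as a fixed and a random block, 255 to 568 when 1 array was left out and 269 without both arrays of animal 1. The count of 1 between ages was 1 to 8 without 1 array, and 5 without both arrays of animal 2 at 3 months. Of 274 named genes 264 were called, and 176 of these were called under every alternative; none reversed. Without detection calls for the probe sets, signals at or below the 30th percentile of an array on all arrays of a side were read as bounds.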
